A study of Mus musculus with 6 samples.

Results

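Cholesterol synthesis, uptake and efflux were examined through 35 genes in the epididymal white adipose tissue (eWAT) of obese mice, which is visceral fat. The genes comprised 18 enzymes of synthesis, 10 genes of uptake, intracellular transport and control by the sterol regulatory element binding proteins (SREBPs), and 7 genes of the liver X receptors (LXRs) and of efflux. A gene was represented by its brightest probe set, by mean over the 6 arrays, among the probe sets annotated with its symbol and no other. Such a probe set was found for 32 of the 35 genes, out of 19938 genes on the array. Acat2, Soat1 and Nr1h2 had none and are named only. After the dimmest 40% of genes were left out, 31 of the 35 were tested, among 11963 genes in all.

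The mice were male C57BL6/J and were kept on a high-fat diet (HFD) that began at 6 weeks of age and lasted 12 weeks. Their eWAT was transduced with a recombinant adeno-associated virus (rAAV) of the Rec2 serotype. The control vector carried YFP and the other vector carried Lmo3, which encodes a LIM domain protein that is a cofactor of transcription. Each group comprised 3 arrays, and each array was a pool of 2 mice, so the diet, strain, sex and a viral injection were shared by both groups. The promoter of the vectors (chicken beta-actin with a CMV enhancer) is not restricted to adipocytes. The probe set of Lmo3 itself read 25, 24 and 24 in rAAV-YFP and 24, 26 and 24 in rAAV-Lmo3, below the dim limit of 114 (exact two-sided permutation p = 1). It therefore gave no check of the labels. The study's own paper reported strong Lmo3 expression by qPCR in rAAV-Lmo3 eWAT, and LMO3 in the mature adipocyte fraction by confocal microscopy.

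Cholesterol is built from acetyl-CoA through mevalonate, isoprenoids, squalene and lanosterol. When sterols run low in the endoplasmic reticulum, SCAP escorts the SREBP precursors to the Golgi for cleavage, and the mature factors switch on the genes of synthesis and uptake. INSIG proteins hold SCAP back when sterols are plentiful. When sterols are in excess, oxysterols activate LXRs, which drive the transporters of efflux. In fat, the adipocyte lipid droplet holds a large pool of mostly free cholesterol, and macrophages of obese tissue take up lipid and handle it in their lysosomes.

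SREBPs act at promoters together with the factor NF-Y, and the promoter windows of the genes were therefore read, from 250 bases before to 50 bases after each RefSeq start (GRCm38.p6). Such a window was found for 29 of the 35 genes. The NF-Y box CCAAT, searched on both strands, was found in 14 of 15 synthesis enzymes (93.3%), in 7 of 8 genes of uptake, transport and SREBP control (87.5%) and in 1 of 6 LXR and efflux genes (16.7%). Among all genes tested on the arrays with a window, 41.5% held it. A gene with several windows was counted if any of them held the motif. The E-box CACGTG, which SREBPs can also bind, was found in 6 of the 29 genes (20.7%, against 11.6% of the genes tested), namely Hsd17b7, Sc5d, Dhcr7, Insig1, Scap and Abca1. The sterol motif TCACNCCAC was found in Hmgcs1 alone of the 29, and in 1.38% of the genes tested. For LXRs, the letters GGTCA repeated after 4 bases were searched. They were found in none of the 29 genes and in 0.021% of the genes tested. The LXR direct repeat, AGGTCA repeated after a spacer of 4 bases, is not matched by that pattern. Whether the windows hold that repeat was therefore not tested. A match of these letters is a description of the window and is not a measured binding site.

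**Figure D1:**
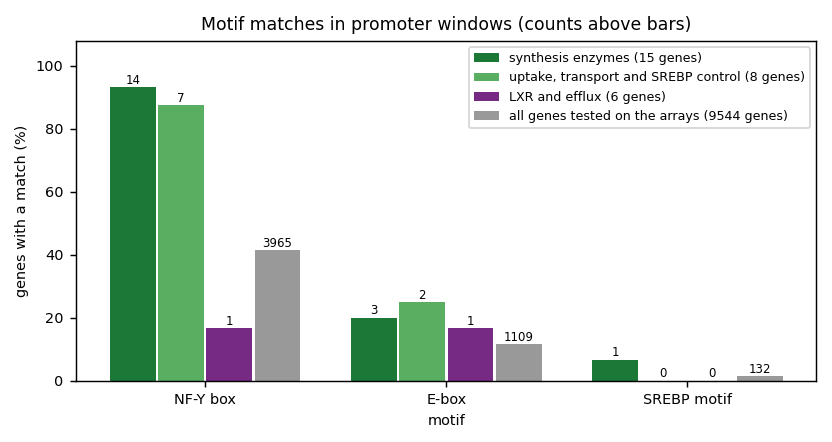
Share of genes (%) whose promoter window holds each motif, for the 3 groups of cholesterol genes and for all genes tested on the arrays that have a window; the number above each bar counts the genes with a match. The NF-Y box stands in 14 of 15 synthesis enzymes and in 1 of 6 LXR and efflux genes, against 41.5% of the genes tested.

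Stretches upstream of the start are printed for 2 kinds of gene: the synthesis and SREBP control genes with a sterol motif or an E-box upstream of the 5′-most start (Hmgcs1, Hsd17b7, Sc5d and Insig1), and the synthesis enzymes with an NF-Y box there and an unadjusted limma p under 0.05 on the arrays (Pmvk, Tm7sf2 and Nsdhl, besides Hmgcs1). Capitals mark the sterol motif, the E-box and the NF-Y box, which reads ATTGG where it lies on the other strand. All are written 5′ to 3′ on the strand of the gene.
Hmgcs1 (chr13:119690159-119690277, plus strand): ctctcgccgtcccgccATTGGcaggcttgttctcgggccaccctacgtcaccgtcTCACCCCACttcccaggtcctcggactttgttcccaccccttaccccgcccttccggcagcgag
Pmvk (chr3:89454350-89454464, plus strand): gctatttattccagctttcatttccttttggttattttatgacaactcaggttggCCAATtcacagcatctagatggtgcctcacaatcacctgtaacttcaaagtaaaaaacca
Tm7sf2 (chr19:6067851-6067952, minus strand): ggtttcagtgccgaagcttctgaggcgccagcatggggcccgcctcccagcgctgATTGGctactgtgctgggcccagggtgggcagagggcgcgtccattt
Nsdhl (chrX:72918446-72918520, plus strand): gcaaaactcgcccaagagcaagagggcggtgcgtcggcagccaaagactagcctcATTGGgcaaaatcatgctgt
Hsd17b7 (chr1:169969288-169969403, minus strand): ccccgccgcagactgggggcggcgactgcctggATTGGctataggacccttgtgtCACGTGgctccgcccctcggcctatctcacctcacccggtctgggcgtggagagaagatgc
Sc5d (chr9:42264338-42264453, minus strand): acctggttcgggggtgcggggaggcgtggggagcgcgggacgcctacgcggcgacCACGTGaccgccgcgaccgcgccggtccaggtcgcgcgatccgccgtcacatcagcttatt
Insig1 (chr5:28071256-28071371, plus strand): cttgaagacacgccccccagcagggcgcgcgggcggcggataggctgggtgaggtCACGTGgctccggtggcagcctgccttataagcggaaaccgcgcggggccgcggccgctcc
In Hmgcs1 the sterol motif begins 137 bases before the start, and the whole window holds 4 NF-Y boxes, of which 1 lies in the printed stretch. The E-boxes of Hsd17b7, Insig1 and Sc5d begin 143, 101 and 98 bases before the start, and the NF-Y boxes of Insig1 and Sc5d lie outside the stretches shown. Pmvk has 2 windows, of which the 5′-most is shown. The E-boxes of Dhcr7 and Scap lie upstream of other starts of these genes and are not shown.

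Synthesis enzymes had higher mean values in rAAV-Lmo3 eWAT throughout, although by small amounts. All 17 tested enzymes had a difference (rAAV-Lmo3 minus rAAV-YFP, log2 scale) above 0, where 50.3% of all genes tested did, and the median difference was 0.23 against 0.00076 over all genes. Genes of uptake, transport and SREBP control were mixed, with 6 of 9 above 0 and a median of 0.06. A difference above 0.2 was found for 12 of the 17 enzymes and for Insig1, 13 of the 31 genes in all, against 9.09% of all genes tested. LXR and efflux genes were centred near 0, with 2 of 5 above 0 and a median of -0.02. After a second quantile normalization 15 of the 17 enzymes were above 0, with Fdft1 and Sc5d just below, and with each array centred on its median 3 of 5 LXR and efflux genes were above 0. Leaving out each array in turn left 14 (without rAAV-YFP 1) to 17 enzymes above 0 and a median of 0.18 (without rAAV-Lmo3 2) to 0.39 (without rAAV-YFP 3). The medians of the other groups changed sign, from -0.06 (without rAAV-Lmo3 3) to 0.13 (without rAAV-Lmo3 1) for uptake, transport and SREBP control and from -0.06 (without rAAV-Lmo3 1) to 0.05 (without rAAV-Lmo3 3) for LXR and efflux.

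At an unadjusted limma p under 0.05, 5 of the 31 tested genes were higher in rAAV-Lmo3 (16.1%) and 0 were lower, where over all genes tested 2.27% were called higher and 2.4% lower. That was 271 and 287 genes, which became 317 and 216 with each array centred on its median. The 5 genes, Hmgcs1, Pmvk, Sqle, Tm7sf2 and Nsdhl, are all synthesis enzymes. After Benjamini-Hochberg adjustment of the limma p-values no gene passed, neither among the 31 (smallest adjusted p 0.970) nor among all genes (smallest adjusted p 0.669). The methods' t-test gave an unadjusted p under 0.05 for Sqle only, higher in rAAV-Lmo3 (1.95% of all genes tested were higher by it and 2.69% lower), and likewise no gene after adjustment. Differences below are therefore measured values, and none of them stands out from the spread between pools once all genes are counted. The count of 5 genes changed with the array left out. It was 0 without rAAV-YFP 2, 0 without rAAV-Lmo3 2, 1 (Sqle) without rAAV-YFP 1, 8 without rAAV-YFP 3 and 10 without rAAV-Lmo3 1. Without rAAV-Lmo3 3, Pmvk was called higher and Mylip lower. Over all genes tested, 122 were called higher without rAAV-YFP 2, 167 without rAAV-YFP 1, 404 without rAAV-YFP 3 and 298 without rAAV-Lmo3 1. Without rAAV-Lmo3 2 or rAAV-Lmo3 3 the count lay between 122 and 404. Without rAAV-Lmo3 3, 140 of all genes tested were called lower. The count over all genes thus also moved with the array left out, and a change in it is not particular to the cholesterol genes.

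**Figure D2:**
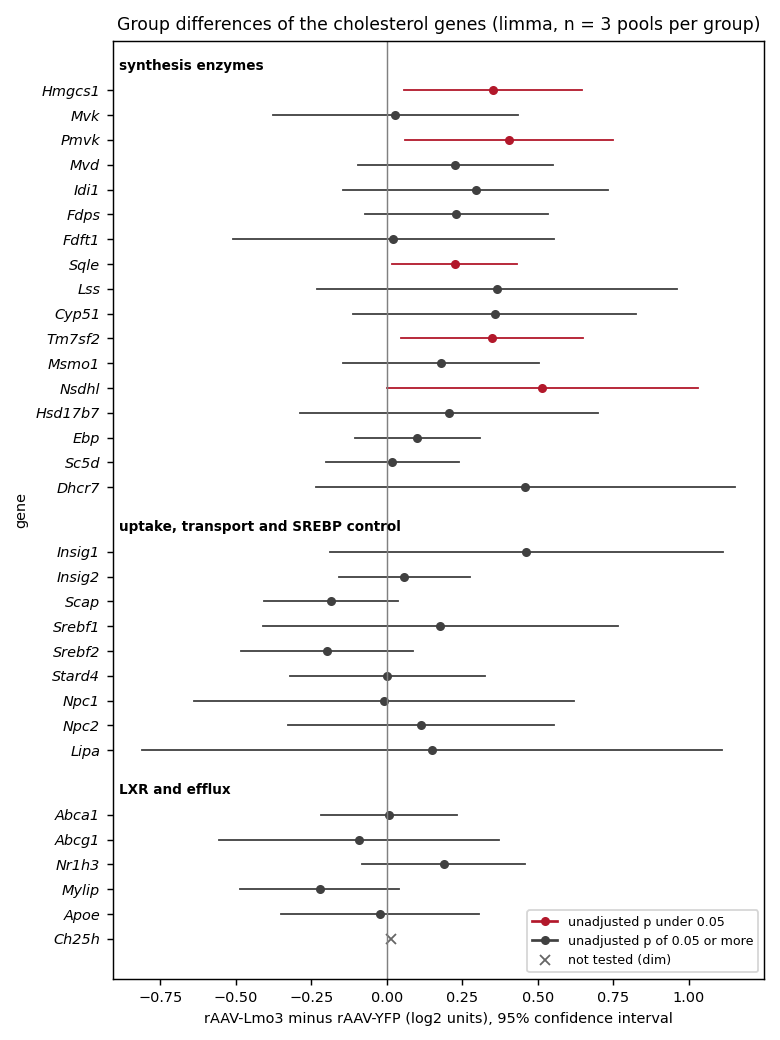
Difference between rAAV-Lmo3 and rAAV-YFP (x axis, log2 units) of each measured cholesterol gene (y axis), with its 95% confidence interval from limma; red marks an unadjusted p under 0.05 and the cross the gene too dim to be tested. All 17 synthesis enzymes lie to the right of 0, from 0.02 to 0.52, while the other groups lie on both sides.

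The mevalonate branch begins with Hmgcs1, the cytosolic HMG-CoA synthase. Its intensities were 1956, 1977 and 2415 in rAAV-YFP and 2375, 2896 and 2829 in rAAV-Lmo3. The groups overlapped only in that rAAV-Lmo3 1 lay just below rAAV-YFP 3. The difference was 0.35 ± 0.12 (log2, SE), or 1.28-fold (95% confidence interval of the log2 difference 0.06 to 0.65). Its limma adjusted p was 0.970 and its exact two-sided permutation p was 0.2.

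Mevalonate is phosphorylated by Mvk and then by Pmvk, and these neighbours in the pathway gave different values. Pmvk read 541, 590 and 730 in rAAV-YFP and 801, 928 and 727 in rAAV-Lmo3, a difference of 0.40 ± 0.14 (limma adjusted p = 0.970, exact permutation p = 0.2). Here rAAV-Lmo3 3 fell short of rAAV-YFP 3 by 3 units of intensity, and the other rAAV-Lmo3 arrays lay above all controls. Mvk read 396, 419 and 578 against 404, 525 and 480, so that its highest value was in rAAV-YFP 3 and its difference was 0.03 ± 0.17.

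Mvd, which decarboxylates the product to isopentenyl pyrophosphate, read 229, 250 and 292 in rAAV-YFP and 266, 346 and 291 in rAAV-Lmo3 (0.23 ± 0.13). Idi1, the isomerase of that product, read 253, 250 and 344 against 275, 400 and 365 (0.29 ± 0.18), and its dimmer probe set gave 0.30. Fdps, which makes farnesyl pyrophosphate, read 256, 264 and 324 against 295, 366 and 327 (0.23 ± 0.13). In these 3 genes the highest array was rAAV-Lmo3 2, and rAAV-YFP 3 was the highest control.

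Squalene formation and closure to lanosterol were less uniform. Fdft1, the squalene synthase, read 681, 1023 and 875 in rAAV-YFP and 1160, 740 and 743 in rAAV-Lmo3, with a difference of 0.02 ± 0.22. It was the exception among the enzymes, since rAAV-Lmo3 1 was its highest array and rAAV-Lmo3 2 and 3 lay near the lowest control. Its other probe set, which read 459, 680 and 644 against 771, 504 and 505, ordered the arrays in much the same way and gave -0.01.

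Sqle, the squalene epoxidase, read 236, 206 and 237 in rAAV-YFP and 262, 272 and 258 in rAAV-Lmo3. It was the only gene of the 31 genes whose rAAV-Lmo3 arrays all lay above all controls (3.23%, against 4.53% of all genes tested), with a difference of 0.22 ± 0.09 (limma adjusted p = 0.970). With 3 arrays against 3, the exact two-sided permutation p of 0.1 is the smallest that the design allows. Lss, the lanosterol synthase, read 407, 397 and 550 against 395, 726 and 660, and its rAAV-Lmo3 1 array was the lowest of the 6 (0.36 ± 0.25).

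Conversion of lanosterol to cholesterol involves the removal of 3 methyl groups, shifts of double bonds and reductions. Nsdhl, the dehydrogenase of the C4 demethylation, had the largest difference of the 31 genes. It read 987, 810 and 1209 in rAAV-YFP and 1063, 1606 and 1653 in rAAV-Lmo3, a difference of 0.52 ± 0.22 or 1.43-fold (95% confidence interval 0.0017 to 1.03, limma adjusted p = 0.970, exact permutation p = 0.2). The difference was carried by rAAV-Lmo3 2 and 3, while rAAV-Lmo3 1 lay within the controls.

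Tm7sf2, a sterol C14 reductase, read 161, 148 and 181 in rAAV-YFP and 178, 227 and 220 in rAAV-Lmo3 (0.35 ± 0.13, limma adjusted p = 0.970, exact permutation p = 0.2). Dhcr7, the last reductase of one branch to cholesterol, read 613, 444 and 613 against 478, 972 and 932 (0.46 ± 0.29). Cyp51, the C14 demethylase, read 343, 283 and 416 against 346, 518 and 474 (0.36 ± 0.20). Each of the 3 was high in rAAV-Lmo3 2 and 3, and rAAV-Lmo3 1 stayed within the range of the controls. For Dhcr7 the SD within rAAV-Lmo3 (0.57) was larger than the difference, and its confidence interval ran from -0.23 to 1.15.

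Of the other enzymes of this stage, Msmo1, the C4 methyl sterol oxidase, read 769, 694 and 785 in rAAV-YFP and 700, 896 and 970 in rAAV-Lmo3 (0.18 ± 0.14). Hsd17b7, the keto reductase of the demethylation, read 314, 291 and 440 against 311, 460 and 432 (0.21 ± 0.21). Ebp, the isomerase of the sterol double bond, read 626, 569 and 639 against 617, 690 and 660 (0.10 ± 0.09). All 3 overlapped between groups. Sc5d, the sterol desaturase, was nearly flat at 2441, 2937 and 2710 against 2797, 2735 and 2641 (0.02 ± 0.09), and its range over the 6 arrays was 1.20-fold.

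Taking the 17 enzymes by array, rAAV-Lmo3 2 was the highest array for 12 of them, and the lowest was rAAV-YFP 2 for 9 and rAAV-YFP 1 for 7. Enzymes above all 3 controls numbered 14 on rAAV-Lmo3 2, 11 on rAAV-Lmo3 3 and 3 on rAAV-Lmo3 1. The score of the group, the mean log2 value centred per gene, was -0.21, -0.24 and 0.07 in rAAV-YFP (mean -0.13 ± 0.17, SD) and -0.08, 0.28 and 0.18 in rAAV-Lmo3 (mean 0.13 ± 0.18, SD). The groups overlapped in the score, as rAAV-Lmo3 1 lay below rAAV-YFP 3. No test of the score was made.

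**Figure D3:**
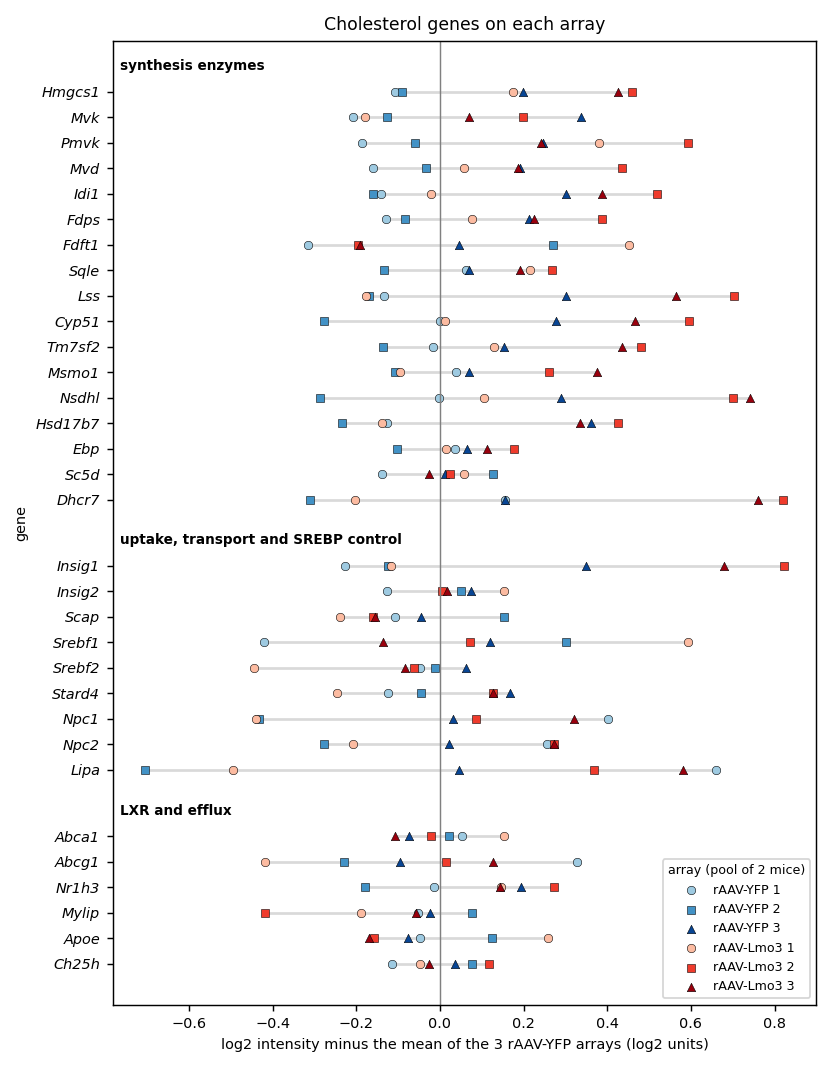
Log2 intensity of each measured cholesterol gene on each of the 6 arrays (x axis), shown as the distance from the rAAV-YFP mean of that gene; each point is 1 pool of 2 mice, blue for rAAV-YFP and red for rAAV-Lmo3. Most synthesis enzymes and Insig1 are highest on rAAV-Lmo3 2 and 3, and Lipa, Npc1 and Abcg1 spread over both groups.

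Of the regulators of SREBPs, Insig1, which is itself an SREBP target, had the second largest difference of the 31 genes. It read 2552, 2740 and 3803 in rAAV-YFP and 2753, 5283 and 4777 in rAAV-Lmo3 (0.46 ± 0.27, or 1.38-fold, limma adjusted p = 0.970). Like most enzymes it was highest on rAAV-Lmo3 2 and 3, and rAAV-Lmo3 1 was close to the lower controls. Insig2, its paralogue, read 561, 634 and 645 against 681, 614 and 619 (0.06 ± 0.09).

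Scap and Srebf2, the escort and the SREBP that chiefly drives cholesterol synthesis, were lower in all rAAV-Lmo3 arrays than in any control. Scap read 649, 777 and 678 in rAAV-YFP and 592, 626 and 628 in rAAV-Lmo3 (-0.18 ± 0.09). Srebf2 read 483, 495 and 521 against 367, 478 and 471 (-0.20 ± 0.12), with rAAV-Lmo3 1 far below the rest. Together with Mylip these were 3 of the 31 genes without overlap in this direction, against 5.95% of all genes tested. The exact two-sided permutation p of each was 0.1, the smallest possible. Neither reached an unadjusted p under 0.05.

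Srebf1, which encodes the SREBP of fatty acid synthesis, read 629, 1036 and 914 in rAAV-YFP and 1270, 885 and 765 in rAAV-Lmo3 (0.18 ± 0.25). It varied by 2.02-fold over the arrays, with rAAV-Lmo3 1 at the top and rAAV-YFP 1 at the bottom, and the difference was -0.03 without the one or without the other. Stard4, a carrier of sterols between membranes, read 196, 207 and 240 against 180, 233 and 233 and had a difference of 0.0017 ± 0.14.

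Lysosomal handling of cholesterol involves Lipa, the acid lipase that releases it from esters, and Npc1 and Npc2, which export it. Lipa read 6266, 2432 and 4096 in rAAV-YFP and 2814, 5119 and 5931 in rAAV-Lmo3, a range of 2.58-fold, the widest of the 31 genes, and a difference of 0.15 ± 0.40 that was -0.20 without rAAV-YFP 2. Npc1 read 1190, 667 and 920 against 664, 956 and 1125 (-0.01 ± 0.26), and Npc2 read 2606, 1801 and 2218 against 1889, 2638 and 2637 (0.11 ± 0.18). For these genes the arrays within a group differed far more than the groups did, and rAAV-YFP 2 and rAAV-Lmo3 1 were the lowest arrays of their groups for all 3.

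The same arrays were low in macrophage markers. The summed intensity of 23 measured macrophage markers was 65622, 29783 and 48777 in rAAV-YFP and 35481, 56025 and 64284 in rAAV-Lmo3. None of the markers was too dim to be tested. Of the 23, 19 were higher in rAAV-Lmo3, where 50.3% of all genes tested were above 0. At an unadjusted limma p under 0.05, 0 markers were higher and 2 were lower, Emilin2 (-0.48 ± 0.17) and Mertk (-0.27 ± 0.10). Over all genes tested 2.27% were called higher and 2.4% lower, and neither marker passed adjustment. Adgre1, which encodes F4/80, read 2268, 718 and 1453 against 1032, 1946 and 2520, and Cd68 read 6403, 2654 and 4053 against 2761, 4847 and 5822. Lipa ordered all 15 pairs of arrays as this sum did, Npc1 and Abcg1 14 of 15, and Npc2 12 of 15. Of the synthesis enzymes, Msmo1 did so for 12 of 15, Nsdhl, Ebp and Dhcr7 for 11, Idi1, Lss, Cyp51, Tm7sf2 and Hsd17b7 for 10, and the other enzymes for 1 (Sc5d) to 9. Insig1 did so for 9. This is a description over 6 arrays that share their RNA, and the part of macrophages in the values was not tested. In bulk tissue, fewer cells of a type and less RNA per cell cannot be told apart.

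**Figure D4:**
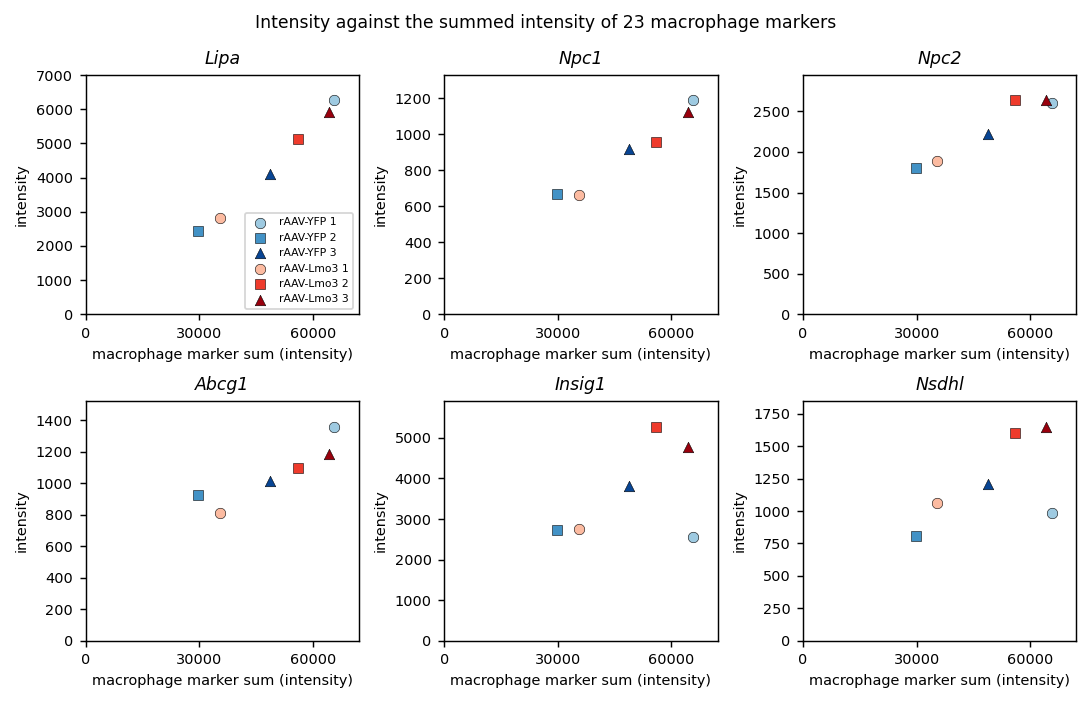
Intensity of 6 cholesterol genes (y axes, from 0) against the summed intensity of 23 macrophage markers (x axis) on the 6 arrays; blue points are rAAV-YFP pools and red points rAAV-Lmo3 pools. Lipa, Npc1, Npc2 and Abcg1 are high where the sum is high, whereas Insig1 and Nsdhl are low on rAAV-YFP 1, the array with the highest sum (65622), and have 9 and 11 of 15 pairs of arrays in its order.

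LXR and efflux genes showed little difference between the groups. Abca1, the transporter that loads cholesterol onto apolipoprotein A1, read 1942, 1903 and 1779 in rAAV-YFP and 2082, 1847 and 1739 in rAAV-Lmo3, with a difference of 0.01 ± 0.09 (95% confidence interval -0.22 to 0.23). Abcg1, which passes cholesterol to high-density lipoprotein, read 1361, 925 and 1015 against 812, 1096 and 1185 (-0.09 ± 0.19; 95% confidence interval -0.56 to 0.37). Apoe, an apolipoprotein secreted by macrophages and adipocytes, read 10403, 11734 and 10208 against 12879, 9639 and 9571 (-0.02 ± 0.14). For Abca1 and Apoe the highest array and the lowest were both in rAAV-Lmo3.

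Nr1h3, which encodes LXR alpha, read 1091, 973 and 1261 in rAAV-YFP and 1220, 1332 and 1217 in rAAV-Lmo3 (0.19 ± 0.11). It was the LXR member with the largest higher value, and rAAV-YFP 3 lay among the rAAV-Lmo3 arrays. Mylip, an LXR target that marks lipoprotein receptors for degradation, read 1088, 1190 and 1111 against 990, 844 and 1084 (-0.22 ± 0.11). All of its rAAV-Lmo3 arrays lay below all controls, the closest by 4 units of intensity. Ch25h, which makes 25-hydroxycholesterol, was below the dim limit at 63, 72 and 70 against 66, 74 and 67 and was not tested by limma (exact two-sided permutation p = 0.9).

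Other genes of the same pathways were counted from lists. None of the 8 tested genes of SREBP processing and the INSIG pathway was called at an unadjusted p under 0.05, with a median difference of 0.04. Rnf139, an INSIG-binding ubiquitin ligase, had the smallest p (0.14 ± 0.09), followed by Ubxn6 (0.10 ± 0.09) and Sec23a (0.09 ± 0.10). Among isoprenoid branches, which start from the same intermediates, 9 of 10 genes were above 0 with a median of 0.13. Over all genes tested 50.3% were above 0. Of the 10 genes, 1 was called higher (10%, against 2.27% of all genes tested). This was Fntb, the beta subunit of protein farnesyltransferase, with 140, 130 and 138 in rAAV-YFP and 149, 171 and 180 in rAAV-Lmo3 (0.29 ± 0.10, limma adjusted p = 0.970, exact permutation p = 0.1). Ggps1, the geranylgeranyl pyrophosphate synthase, gave 0.12 ± 0.09, and Coq2 of coenzyme Q synthesis 0.16 ± 0.15.

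Further LXR targets and partners had a median difference of 0.04, with 6 of 10 above 0, against 50.3% of all genes tested. Of the 10, 1 was called higher (10%, against 2.27% of all genes tested). Lpcat3, a phospholipid acyltransferase, read 1532, 1486 and 1495 in rAAV-YFP and 1700, 2020 and 1990 in rAAV-Lmo3 (0.34 ± 0.09, limma adjusted p = 0.970, exact permutation p = 0.1). Its groups did not overlap (10% of the list, against 4.53% of all genes tested), and the controls lay within a narrow range. Rxra, the partner of LXRs, gave -0.25 ± 0.15 and the transporter Abca7 -0.15 ± 0.10. Of 10 lipoprotein receptors and adaptors none was called, with Sorl1 at 0.31 ± 0.14, Vldlr at 0.39 ± 0.18 and Lrp1 at -0.21 ± 0.14. Of 16 genes of sterol transfer and ester hydrolysis none was called either, with Scp2 at 0.32 ± 0.14, the sterol carrier Gramd1b at 0.22 ± 0.11 and Osbpl5 at -0.11 ± 0.10.

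Fatty acid targets of SREBP1 were set beside the synthesis enzymes, since SREBPs drive both. Of 14 genes, 10 were above 0 with a median of 0.17, where 50.3% of all genes tested were above 0. At an unadjusted p under 0.05, 2 were called higher (14.3%, against 2.27% of all genes tested). Me1, the malic enzyme that supplies NADPH, read 3233, 3870 and 4263 in rAAV-YFP and 5408, 5470 and 5203 in rAAV-Lmo3 (0.51 ± 0.11, limma adjusted p = 0.970, exact permutation p = 0.1). Acss2, the cytosolic acetyl-CoA synthetase, read 537, 887 and 965 against 1398, 1346 and 1019 (0.69 ± 0.24, limma adjusted p = 0.970, exact permutation p = 0.1), and Gpam, an enzyme of glycerolipid synthesis, gave 0.32 ± 0.22. The groups did not overlap for Me1 and Acss2 (14.3% of the list, against 4.53% of all genes tested).

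By array, however, these genes and the sterol enzymes were ordered differently. The score of the fatty acid targets was -0.46, 0.19 and 0.00 in rAAV-YFP and 0.39, 0.03 and -0.14 in rAAV-Lmo3, highest on rAAV-Lmo3 1, where the sterol score was the lowest of its group. On rAAV-YFP 2 and rAAV-Lmo3 1 together, 15 of 17 sterol enzymes lay below the mean of the other arrays of their group, as 35.1% of all genes tested did, and 11 of 14 fatty acid targets lay above that mean, as 32.8% did. Fdft1 and Sc5d, the remaining sterol enzymes, went with the fatty acid targets, ordering 13 and 14 of 15 pairs of arrays as that score did. Srebf1 did so for 14 of 15 pairs, and Srebf2 for 6 of 15. The summed intensity of adipocyte markers was followed nearly as often, by Fdft1 for 12 of 15 pairs, Sc5d for 13 and Srebf1 for 13. For the macrophage marker sum these numbers were 2, 1 and 1. Srebf2 had 9 pairs in the order of the adipocyte sum and 7 in that of the macrophage sum. No test of these orders was made.

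**Figure D5:**
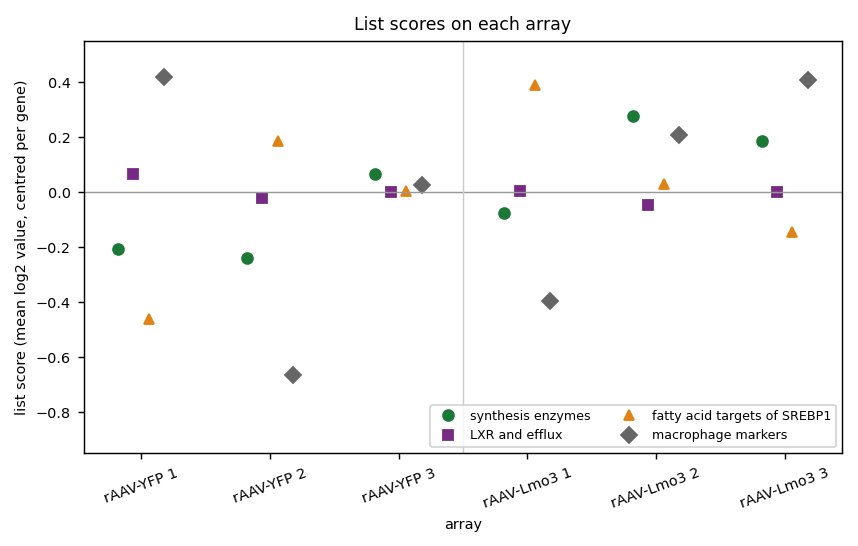
List score (y axis, mean log2 value centred per gene) on each array (x axis, pools of 2 mice) for the synthesis enzymes, the LXR and efflux genes, the fatty acid targets of SREBP1 and the macrophage markers. The fatty acid targets are highest on rAAV-Lmo3 1 (0.39) and the synthesis enzymes on rAAV-Lmo3 2 (0.28), while the LXR and efflux genes stay between -0.05 and 0.07.

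Those arrays, rAAV-YFP 2 and rAAV-Lmo3 1, also stood apart over all genes, with a mean correlation to the others of 0.988 and 0.986 against 0.990 to 0.991. With both left out, 16 of 17 synthesis enzymes were above 0, and their median difference was 0.30 against -0.0050 over all genes. Of the 11963 genes tested, 282 were then called higher, among them 8 cholesterol genes. The 8 were Hmgcs1, Lss, Cyp51, Tm7sf2, Msmo1, Nsdhl, Dhcr7 and Insig1, of which 3 belong to the 5 called over all arrays. Adipocyte markers, which define the labelled tissue, were bright on all arrays, with sums of 104944 to 119967 in rAAV-YFP and 101546 to 118749 in rAAV-Lmo3. Of the 14, 5 were higher in rAAV-Lmo3, where 50.3% of all genes tested were above 0, and none was called at an unadjusted limma p under 0.05. Macrophage marker sums had the widest range, 29783 to 65622 in rAAV-YFP and 35481 to 64284 in rAAV-Lmo3, and for the synthesis enzymes too their part in the values was not tested.

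Sums for the other cell types overlapped between the groups except in T cells, where the closest sums were 850 and 875. Fibroblast and progenitor markers summed to 16963 to 21992 in rAAV-YFP and 18338 to 22829 in rAAV-Lmo3 (5 of 10 higher), endothelial markers to 10767 to 13759 and 9756 to 11971 (2 of 9 higher), and mesothelial markers to 1865 to 3113 and 1749 to 2108 (0 of 8 higher, 2 more too dim). T cell markers summed to 875 to 1128 and 818 to 850 (0 of 3 higher, 5 more too dim), and B cell markers to 480 to 764 and 487 to 675 (1 of 2 higher, 3 more too dim). Over all genes tested 50.3% were above 0. Of the T cell sums, Cd3e alone made up 268, 248 and 355 in rAAV-YFP and 183, 245 and 220 in rAAV-Lmo3. At an unadjusted limma p under 0.05, Cd3e (-0.42 ± 0.17), Cd2 (-0.37 ± 0.10) and the endothelial marker Esam (-0.33 ± 0.13) were lower. No marker of these cell types was called higher. Over all genes tested 2.27% were called higher and 2.4% lower, and none of the markers passed adjustment. Cd3e and Cd2, 2 of the 3 tested T cell markers, did not overlap between the groups, against 5.95% of all genes tested in this direction. No marker was at 0.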

How the data were processed

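Total RNA of eWAT, 1 pool of 2 mice per array, was measured on Affymetrix mouse arrays (Gene 1.0 ST). The deposited intensity values were summarised per probe set by the authors with RMA in Affymetrix Expression Console 1.1, a method that includes quantile normalization; they are linear whole numbers, and log2 was taken here. Intensities compare arrays for 1 gene, never genes with each other, and precision is limited by the number of arrays. Groups follow the sample titles, which name rAAV-YFP as the control, whereas the treatment protocol of the labels names rAAV-LacZ. Replicates are separate pools per the labels, and no batch is given.

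Of 35556 probe sets, 21789 had exactly 1 gene symbol, 1621 several and 12146 none. Genes below a mean log2 intensity of 6.83 (40%) were left out. The difference of each gene was tested by limma 3.58.1 (R 4.3.3) through lmFit and eBayes, two-sided, with Benjamini-Hochberg adjustment over 11963 genes and a threshold of 0.05. SEs are moderated. Simulated data were used to check these steps. Alternatives were 2 normalizations, array weights, a robust prior with trend, the replicate block, 2 filters, the mean over probe sets, the methods' t-test, and leaving out arrays. No set test was made. The cholesterol genes and all lists were chosen with earlier results of these data known. All 35 genes are named, with up to 3 genes of smallest p from each related list. Adgre1 and Cd68 were named as defining macrophage markers. Emilin2, Mertk, Cd3e, Cd2 and Esam were named as the cell type markers with an unadjusted p under 0.05. Promoter windows came from RefSeq (GRCm38.p6).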

Additional observations from a re-analysis of the deposited data

How the results depend on the processing

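No gene passed an adjusted p under 0.05 in any alternative, the methods' t-test included. At an unadjusted p under 0.05, the count of cholesterol genes called higher (5) became 3 after a second quantile normalization, 12 with array weights, 2 with the dimmest 60% of genes left out (15 synthesis enzymes then tested), 1 by the methods' t-test, 8 without rAAV-YFP 2 and rAAV-Lmo3 1, and 0 to 10 leaving out each array in turn; the count called lower (0) ran from 0 to 1. With the replicate block the count called higher was 2 (Hmgcs1 and Tm7sf2), and over all genes tested 216 were called higher and 237 lower. The labels name no pairing of the replicate numbers. Deviations of same-numbered arrays correlated at -0.55, -0.40 and 0.26. These values cannot settle whether arrays were paired, since the 3 deviations within a group are tied to each other. Other alternatives left 4 or 5.

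The 271 genes higher and 287 lower over all genes became 317 and 216 with each array centred on its median, and 458 lower with no filter. The count higher over all genes was 268 after a second quantile normalization, 349 with array weights and 233 by the methods' t-test. It was 205 with the dimmest 60% of genes left out and 282 without rAAV-YFP 2 and rAAV-Lmo3 1. Leaving out each array gave 122 to 404 higher and 140 to 339 lower. The median of the synthesis enzymes ran from 0.18 to 0.39 leaving out each array, that of uptake, transport and SREBP control from -0.060 to 0.13, and that of LXR and efflux genes from -0.064 to 0.050.

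Signs turned for small differences. With each array centred, Npc1 became 0.012 and Apoe 0.00015. After the second quantile normalization, Fdft1 became -0.012, Sc5d -0.025 and Abca1 -0.032. With array weights, Fdft1 became -0.089, Npc1 0.062 and Abca1 -0.043, and without both arrays that stood apart Fdft1 became -0.058 and Abca1 -0.053. Leaving out each array, the range was -0.076 to 0.20 for Mvk, -0.19 to 0.16 for Fdft1, -0.051 to 0.083 for Sc5d, -0.0049 to 0.096 for Insig2, -0.033 to 0.33 for Srebf1, -0.060 to 0.13 for Stard4, -0.23 to 0.20 for Npc1, -0.027 to 0.27 for Npc2, -0.20 to 0.48 for Lipa, -0.064 to 0.066 for Abca1, -0.21 to 0.071 for Abcg1 and -0.16 to 0.050 for Apoe. The cause of these shifts was not tested. Leaving out 1 array leaves a group of 2, whose spread limma pools with the other.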
